A study of Mus musculus with 8 samples.

Results

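The core circadian clock genes are described here in iWAT (inguinal white adipose tissue), a fat depot under the skin of the groin. The 10 members were taken by gene name, which were Arntl, Clock, Npas2, Per1, Per2, Per3, Cry1, Cry2, Nr1d1 and Dbp, out of 54532 genes in the deposited table. All 10 were found once each, and all 10 had a mean of at least 0.5 FPKM (the authors' unit, reads per gene divided by gene length and library size), with both group means above that level as well. Messenger RNA came from male mice fed a high-fat diet (labelled HFD-fed), 4 libraries of wild type (labelled Wildtype, here WT) and 4 labelled KLF10AKO, in which KLF10, a zinc-finger transcription factor, is knocked out in adipocytes. The study asked which genes differ in fat when adipocytes lack KLF10. The promoter that drives the deletion, the alleles the WT mice carry, the ages, the animal behind each library and the hour at which tissue was taken are missing from the labels used here. P-values therefore measure the spread between these libraries.

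The mammalian clock is a transcriptional feedback loop that runs with a period of about a day in most cells, adipocytes included. ARNTL (also called BMAL1) pairs with CLOCK or with its paralogue NPAS2, and the pair binds E-boxes to switch on the Per and Cry genes, whose proteins return to the nucleus and repress the pair. In a linked loop the same pair switches on Nr1d1, which encodes the heme-binding repressor REV-ERB alpha, and REV-ERB alpha holds down Arntl and Cry1 through RRE elements that it shares with the ROR activators. DBP, a PAR bZIP factor, carries the rhythm to output genes through D-boxes. In fat, clock genes are known to cycle with feeding and fasting, and Klf10 is itself known as a clock-controlled gene.

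The elements of these loops were searched for in RefSeq promoter windows (GRCm38.p6, 250 bases before to 50 after a start site of a gene). These covered 9 of the 10 members with 13 windows. Per2 had no entry. Both strands were searched for the E-box CACGTG, the E-prime box CACGTT, the D-box TTATGTAA and its variant TTACGTAA, the RRE core TAGGTCA and its variant TGGGTCA, and the GC box GGGCGG, a motif of the SP and KLF families. None of the E-box, D-box and RRE matches in the members' windows overlapped a different motif of the search. The 6 stretches below hold at least 1 such match for 6 members, are written 5′ to 3′ on the gene's strand, and carry the match in capitals. They are shown because they hold the letters of elements of the loops above, in members that rose (Arntl and Cry1) and members that fell.
Cry1, E-box, chr10:85185082-85185141, minus strand: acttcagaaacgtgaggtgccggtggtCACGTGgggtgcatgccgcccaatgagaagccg
Per1, E-box, chr11:69098756-69098815, plus strand: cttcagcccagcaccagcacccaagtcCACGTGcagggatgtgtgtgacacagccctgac
Nr1d1, E-prime box (reverse match), chr11:98775378-98775437, minus strand: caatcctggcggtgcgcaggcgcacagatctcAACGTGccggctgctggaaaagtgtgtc
Cry2, E-prime box (reverse match), chr2:92434203-92434262, minus strand: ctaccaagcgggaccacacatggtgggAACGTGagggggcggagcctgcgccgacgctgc
Per3, D-box, chr4:151044810-151044876, minus strand: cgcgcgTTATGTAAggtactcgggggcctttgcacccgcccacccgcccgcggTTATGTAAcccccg
Arntl, RRE core, chr7:113207529-113207558, plus strand: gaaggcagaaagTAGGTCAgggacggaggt

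Positions count the first base of the window's RefSeq start site as 1. The Cry1 E-box lay at -60 to -55 and the Per1 E-box at -166 to -161. The Nr1d1 E-prime box lay at -28 to -23 and the Cry2 E-prime box at -166 to -161. The Per1 match lies inside the annotated gene, which begins at 69095217, so its window belongs to an internal start site. Per3 held its pair of D-boxes between -205 and -151, and the Arntl RRE core lay at 31 to 37 of the second of its 2 start sites. Cry1 also held a reverse E-prime box at -79 to -74, left in lower case above. No RRE letters were found in the Cry1 window. The windows of Clock, Npas2 and Dbp held no E-box, E-prime box, D-box or RRE letters. Of the members' 13 windows, 2 held an E-box, 3 an E-prime box, 1 the D-box and 1 the RRE core. Among all 32851 windows, 7.15% held an E-box, 4.68% an E-prime box, 0.938% the D-box and 2.61% the RRE core. The variants TTACGTAA (0.119% of all windows) and TGGGTCA (3.98%) were in 0 of the 13. The GC box was in 11 of the members' 13 windows, belonging to 8 genes, and in 35.7% of all windows. Both Arntl windows hold the same GC boxes, so windows of a gene are not independent. A match describes letters only; binding was not measured in these data.

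Depth and sample checks come before the members. Between 15537863 and 17499132 whole reads per library could be recovered from FPKM and gene length. Klf10, the targeted gene, stood at 16.7 to 21.1 FPKM in WT and at 9.39 to 9.75 in KLF10AKO, a fall of 0.88 on the log2 scale (limma adjusted p = 8.96e-06), and because that value spans the whole gene it does not show any deleted part separately. The libraries differed far beyond Klf10. The summed FPKM of 10 adipocyte markers was 12032 to 13438 in WT and 3200 to 4464 in KLF10AKO, with all 10 lower, at a median log2 difference of -1.77. The fall of Klf10 was smaller than this median. With every library scaled to these markers, Klf10 stood higher in KLF10AKO, at a log2 difference of 0.84. Endothelial markers summed to 199 to 219 against 115 to 122, with 4 of 5 lower, and progenitor markers to 243 to 275 against 98.2 to 134, with 4 of 5 lower and 1 higher. The sum of 8 B cell markers was 2.88 to 4.08 against 1066 to 1581, and that of 8 T cell markers 2.63 to 4.41 against 272 to 409, with all 16 higher. The 8 skeletal muscle markers summed to 162 to 215 in WT, to 3532 to 8228 in KLF10AKO replicates 1 to 3 and to 34.6 in replicate 4. The 6 genes of placental trophoblast summed to 13.2 to 40.0 FPKM in the WT libraries, although they are labelled as male iWAT, and to at most 0.105 in KLF10AKO, where 5 of the 6 were at 0 in every library. The part these mixtures play in the clock values was not tested, and in bulk tissue fewer cells of a type and less RNA per cell cannot be told apart. Since all 4 WT libraries carry the trophoblast transcripts, no comparison can be given without them.

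Most clock core genes were lower in KLF10AKO fat, while Arntl and Cry1 were higher. The hour at which tissue was taken is not in the labels used here, and its part in these differences was not tested. With limma on log2(FPKM + 0.5) and Benjamini-Hochberg adjustment over 16012 genes, 7 of the 10 members were lower, 2 were higher and Dbp did not pass. Of all genes tested, 34.9% were called lower, 39.4% higher and 74.3% in either direction, which is the background for the 9 members of 10 that passed. The median log2 difference was -0.52 over the members and 0.05 over all genes. For the same 9 members the 4 KLF10AKO values did not overlap the 4 WT values, against 69.2% of all genes tested (36.2% higher and 33.0% lower). Each of these 9 had an exact two-sided permutation p of 0.0286 over the 8 libraries, the smallest that 4 against 4 can give.

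**Figure D1:**
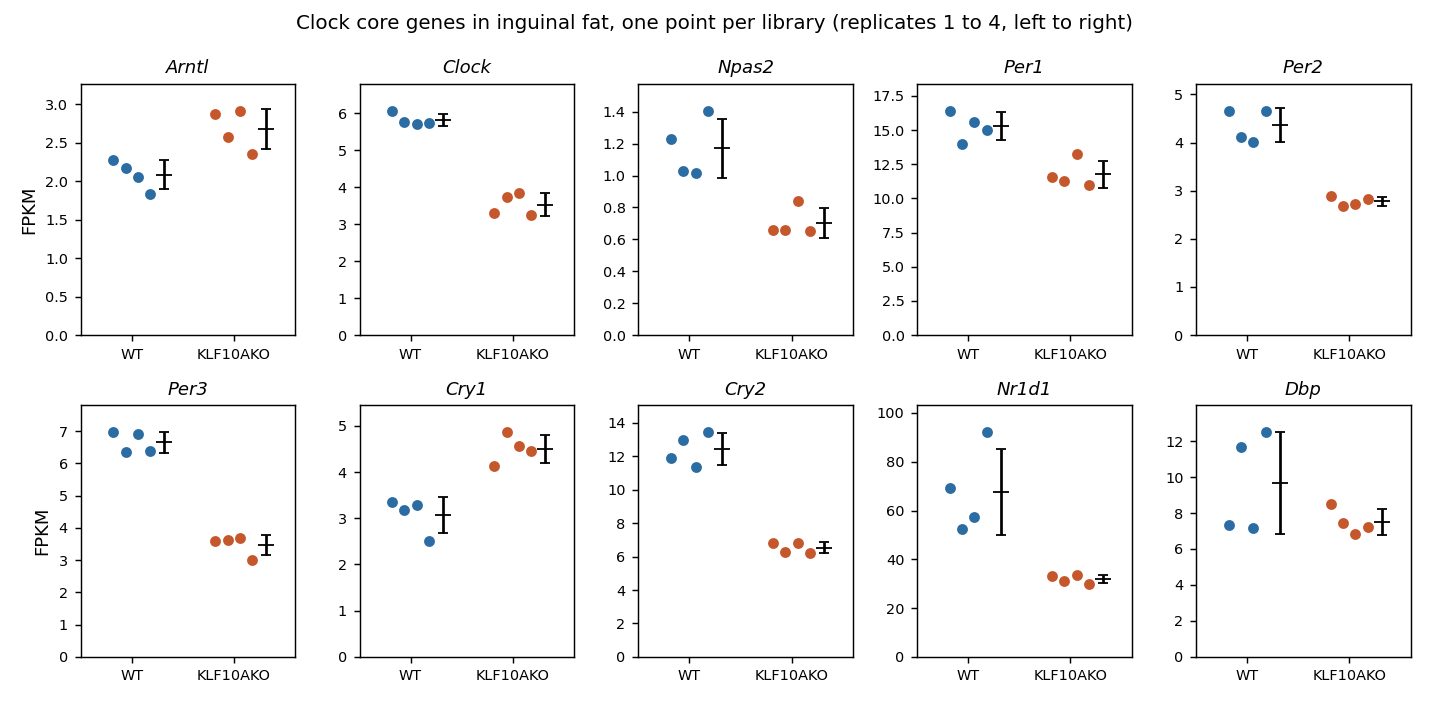
FPKM of the 10 clock core genes in each library (points, replicates 1 to 4 from left to right within a group), with the group mean and SD (n = 4) as a bar beside them; the vertical axes start at 0 and differ between panels. Arntl and Cry1 lie higher in all 4 KLF10AKO libraries, Dbp overlaps, and the other members lie lower.

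The activators did not move together. Arntl (ENSMUSG00000055116, mm10 chromosome 7, 113207465 to 113314126, plus strand), the obligate partner of the activating pair, stood at 2.28, 2.17, 2.05 and 1.84 FPKM in replicates 1 to 4 of WT, against 2.87, 2.57, 2.92 and 2.36 in those of KLF10AKO. Every KLF10AKO library was above every WT library, although the highest WT and lowest KLF10AKO libraries lay close together. Arntl rose by 0.30 on the log2 scale (SE 0.0898, limma 95% interval 0.09 to 0.50, adjusted p = 0.0146), a 1.23-fold difference (folds here are of FPKM + 0.5). This is the smallest difference among the members that passed. With KLF10AKO replicate 4 standing alone for its genotype, assumed to vary like WT, the difference was 0.15 and did not pass (limma adjusted p = 0.373).

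Clock (ENSMUSG00000029238, chromosome 5, 76209868 to 76304792, minus strand), which encodes the usual partner of ARNTL, stood at 6.07, 5.75, 5.72 and 5.74 FPKM across WT, against 3.29, 3.73, 3.85 and 3.25 across KLF10AKO. The WT libraries were almost level, and the groups were far apart. Clock fell by 0.65 (SE 0.0686, limma adjusted p = 2.71e-05), a 1.57-fold difference. Npas2 (ENSMUSG00000026077, chromosome 1, 39193731 to 39363236, plus strand), the paralogue that can stand in for CLOCK, was the lowest member, at 1.23, 1.03, 1.02 and 1.41 FPKM across WT, against 0.661, 0.660, 0.840 and 0.651 across KLF10AKO. KLF10AKO replicates 1, 2 and 4 were nearly equal and replicate 3 was higher, still under all WT libraries. Npas2 fell by 0.47 (SE 0.119, limma adjusted p = 0.00599). Its level rested on 55 to 99 reads per library, and at this level the added 0.5 FPKM understates the change. The log2 difference was -0.66 with 0.1 added and -0.72 with voom on the recovered reads. Quantile normalization (-0.89) and TPM (-0.44, limma adjusted p = 0.0497) changed the scaling and kept an added 0.5.

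All 3 Period genes, the negative arm that the activating pair switches on, were lower. Per1 (ENSMUSG00000020893, chromosome 11, 69095217 to 69109960, plus strand), also known to respond quickly to hormones and stress, stood at 16.4, 14.0, 15.6 and 15.02 FPKM across WT, against 11.6, 11.3, 13.2 and 10.98 across KLF10AKO. KLF10AKO replicate 3 lay just under WT replicate 2, and the groups did not overlap. Per1 fell by 0.36 (SE 0.0749, limma adjusted p = 0.00188), and the difference with TPM was -0.17, which did not pass (limma adjusted p = 0.127).

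Per2 (ENSMUSG00000055866, chromosome 1, 91415982 to 91459324, minus strand), a repressor that binds the cryptochromes, stood at 4.66, 4.12, 4.02 and 4.66 FPKM across WT, against 2.89, 2.69, 2.72 and 2.84 across KLF10AKO. The KLF10AKO libraries were tight, all under 3 FPKM. Per2 fell by 0.56 (SE 0.0700, limma adjusted p = 7.92e-05). Per3 (ENSMUSG00000028957, chromosome 4, 151003652 to 151044665, minus strand), the Period gene least needed for the rhythm itself and the one with the pair of D-boxes shown above, stood at 6.96, 6.35, 6.91 and 6.37 FPKM across WT, against 3.60, 3.61, 3.67 and 2.996 across KLF10AKO. KLF10AKO replicate 4 was lower than the other libraries of its group. Per3 had the largest fall of the Period genes, 0.85 (SE 0.0752, limma adjusted p = 8.79e-06), a 1.80-fold difference. Whether the falls of the 3 Period genes differ from each other was tested only for Per1 against Per2, as the ratio given further on.

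The cryptochromes, the main repressors of the activating pair, split. Cry1 (ENSMUSG00000020038, chromosome 10, 85131700 to 85185064, minus strand), known as a late-phase gene that reads both E-boxes and RREs, stood at 3.35, 3.17, 3.29 and 2.51 FPKM across WT, against 4.14, 4.86, 4.56 and 4.45 across KLF10AKO. All KLF10AKO libraries were above 4 FPKM and all WT libraries below it, with WT replicate 4 the lowest. Cry1 rose by 0.49 (SE 0.0931, limma adjusted p = 0.00121), a 1.40-fold difference, and with KLF10AKO replicate 4 standing alone the value was 0.47 and did not pass (limma adjusted p = 0.0723). Cry2 (ENSMUSG00000068742, chromosome 2, 92403646 to 92434043, minus strand) stood at 11.9, 13.0, 11.4 and 13.4 FPKM across WT, against 6.79, 6.29, 6.84 and 6.19 across KLF10AKO. The KLF10AKO libraries lay in a narrow band far below the WT libraries. Cry2 fell by 0.88 (SE 0.0687, limma adjusted p = 4.10e-06), a 1.84-fold difference with the lowest adjusted p of the members.

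Nr1d1 (ENSMUSG00000020889, chromosome 11, 98767932 to 98775333, minus strand), the REV-ERB alpha gene and in fat also known for its part in adipocyte differentiation, had the highest level of the members. It stood at 69.1, 52.4, 57.4 and 92.1 FPKM across WT, against 33.0, 31.1, 33.6 and 29.7 across KLF10AKO. The WT libraries were spread widely, with replicate 4 highest, while those of KLF10AKO were close together; the coefficients of variation were 26.1% and 5.57%. Nr1d1 fell by 1.04 (SE 0.158, limma 95% interval -1.40 to -0.69, adjusted p = 2.80e-04), a 2.06-fold difference, the largest among the members with the authors' scaling; with quantile normalization Per3 (-1.08) and Cry2 (-1.04) fell further than Nr1d1 (-0.95). In GENCODE M21, 263 of its 3077 exon bases (8.55%) overlap exons of Thra, the thyroid hormone receptor alpha gene on the opposite strand. Thra fell too, from 28.4 to 33.8 FPKM in WT to 12.8 to 15.3 in KLF10AKO (log2 difference -1.17, limma adjusted p = 1.40e-06). No source used here states whether counting used strand, so reads in the shared bases cannot be told apart.

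Dbp (ENSMUSG00000059824, chromosome 7, 45705088 to 45710203, plus strand), the output factor, was the member that did not pass. It stood at 7.34, 11.7, 7.17 and 12.5 FPKM across WT, against 8.53, 7.45, 6.84 and 7.23 across KLF10AKO. WT replicates 2 and 4 were high, while WT replicates 1 and 3 lay within the range of KLF10AKO. The log2 difference was -0.31 (95% interval -0.72 to 0.11, limma adjusted p = 0.156, exact permutation p = 0.286), an interval that does not exclude a fall of the size seen in Clock. The value moved with the scaling and with single libraries: it was -0.48 with quantile normalization, which passed (limma adjusted p = 0.0308), -0.11 with TPM (limma adjusted p = 0.682) and -0.17 without WT replicate 4 (limma adjusted p = 0.375). Exons of Sphk2 on the opposite strand overlap 539 of its 2993 exon bases.

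Within each group the members stood at distinct levels in FPKM. The gene length behind FPKM matches all annotated exon bases (3077 for Nr1d1 and 2993 for Dbp), which can exceed the length of a transcript. The order between genes is therefore approximate. In WT the order of mean FPKM was Nr1d1 (67.7 ± 17.7), Per1 (15.3 ± 1.02), Cry2 (12.4 ± 0.944), Dbp (9.67 ± 2.81), Per3 (6.65 ± 0.333), Clock (5.82 ± 0.166), Per2 (4.37 ± 0.347), Cry1 (3.08 ± 0.388), Arntl (2.09 ± 0.189) and Npas2 (1.17 ± 0.186; SD, n = 4 each). Only Cry2 and Dbp, neighbours in that order, had overlapping ranges. In KLF10AKO the order ran Nr1d1 (31.9 ± 1.78), Per1 (11.8 ± 1.002), Dbp (7.51 ± 0.724), Cry2 (6.53 ± 0.338), Cry1 (4.499 ± 0.298), Clock (3.53 ± 0.303), Per3 (3.47 ± 0.318), Per2 (2.78 ± 0.0945), Arntl (2.68 ± 0.263) and Npas2 (0.703 ± 0.0917; SD, n = 4 each). There Dbp overlapped Cry2, Clock overlapped Per3 and Per2 overlapped Arntl. Cry1 had moved from below Per2, Clock and Per3 to above them.

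The size of the differences, and single calls, moved with how libraries are scaled to each other. The median log2 difference of all genes was 0.05 with the authors' scaling, 0.25 with TPM, -0.16 with quantile normalization and 1.77 when every library was scaled to the 10 adipocyte markers. The share of called genes that were higher was 53.0%, 63.4%, 41.2% and 99.5% in the same order. That last scaling adds the same amount to the difference of every gene, which leaves the sign of each gene open, and 77 genes were called lower with it. All 10 members lay above 0, from 0.68 for Nr1d1 to 2.21 for Cry1. These are the differences relative to the adipocyte markers, so each member had fallen less than the mean of those markers or had risen. Relative to the median of all genes, Arntl and Cry1 lay above it (by 0.25 and 0.44) and the other 8 below it (by -0.35 for Dbp to -1.09 for Nr1d1) with the authors' scaling. With TPM Arntl stood at 0.53. With quantile normalization it had a log2 difference of -0.00017 (limma adjusted p = 0.999), and lay 0.16 above the median of all genes, while Cry1 still passed (0.24, limma adjusted p = 0.0451).

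**Figure D2:**
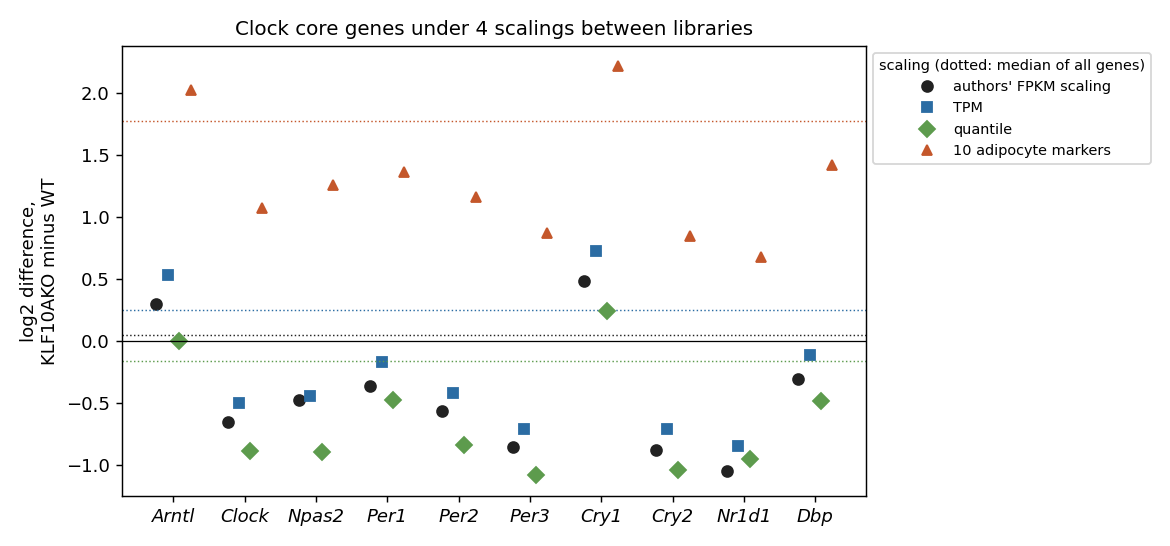
Log2 difference of each clock core gene, KLF10AKO minus WT, under 4 scalings between libraries (symbols), with the median of all genes under each scaling as a dotted line of the same colour. Arntl and Cry1 lie above the dotted line of their colour and the other 8 members below it; the adipocyte-marker values are those of the authors' scaling moved up together with their line, so their place against that line is fixed.

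Ratios of clock genes within a library do not depend on a factor applied to a whole library, apart from the added 0.5 FPKM, and 7 were compared, each as (FPKM + 0.5) over (FPKM + 0.5). Nr1d1 over Arntl, repressor over the gene it represses, was 25.1, 19.8, 22.6 and 39.6 across WT and 9.96, 10.3, 9.97 and 10.6 in KLF10AKO. The 4 KLF10AKO ratios were nearly equal, and all lay far under the lowest WT ratio. The log2 ratio fell by 1.34 (exact permutation p = 0.0286, adjusted to 0.05 over the 7 ratios, which is at the threshold). With KLF10AKO replicate 4 standing alone it was -1.29 and did not pass (limma adjusted p = 0.0759).

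Cry1 over Cry2 was 0.310, 0.272, 0.319 and 0.216 in WT and 0.636, 0.790, 0.689 and 0.740 in KLF10AKO. The lowest KLF10AKO ratio was well above the highest WT ratio, and the log2 ratio rose by 1.37 (exact permutation p = 0.0286, adjusted 0.05). Per2 over Cry1, both repressors of the same pair, was 1.34, 1.26, 1.19 and 1.72 in WT and 0.731, 0.595, 0.637 and 0.674 in KLF10AKO. Per2 thus had the higher FPKM in every WT library and Cry1 in every KLF10AKO library. That log2 ratio fell by 1.05 (exact permutation p = 0.0286, adjusted 0.05).

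Dbp over Arntl also separated the groups, but narrowly, at 2.82, 4.56, 3.002 and 5.56 in WT and 2.68, 2.59, 2.15 and 2.71 in KLF10AKO. The log2 ratio fell by 0.60 (exact permutation p = 0.0286, adjusted 0.05). By limma its adjusted p was 0.0433 with all libraries and between 0.0511 and 0.118 without WT replicate 2 or 4 or without any 1 of the KLF10AKO replicates, and with quantile normalization it did not pass.

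The other 3 ratios overlapped between the groups. Npas2 over Clock differed by 0.18 on the log2 scale (limma 95% interval -0.02 to 0.39, exact permutation p = 0.0571, adjusted 0.0800), and without WT replicate 4 by 0.25, which passed (limma adjusted p = 0.0175). With 0.1 in place of 0.5 added to the FPKM that difference was 0.05, and with quantile normalization it was -0.0045; neither passed. Per1 over Per2 differed by 0.20 (limma 95% interval -0.0036 to 0.41, exact permutation p = 0.0857, adjusted 0.1), and without WT replicate 3 by 0.25, which passed (limma adjusted p = 0.0432). With quantile normalization it was 0.36, at the threshold, and with KLF10AKO replicate 4 standing alone 0.09 (limma adjusted p = 0.575). Dbp over Nfil3, the activator and the repressor of D-boxes, differed by -0.42 (limma 95% interval -1.004 to 0.16, exact permutation p = 0.257), and without WT replicate 3 by -0.59, which passed (limma adjusted p = 0.0485). With KLF10AKO replicate 4 standing alone it was -0.20 (limma adjusted p = 0.703).

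**Figure D3:**
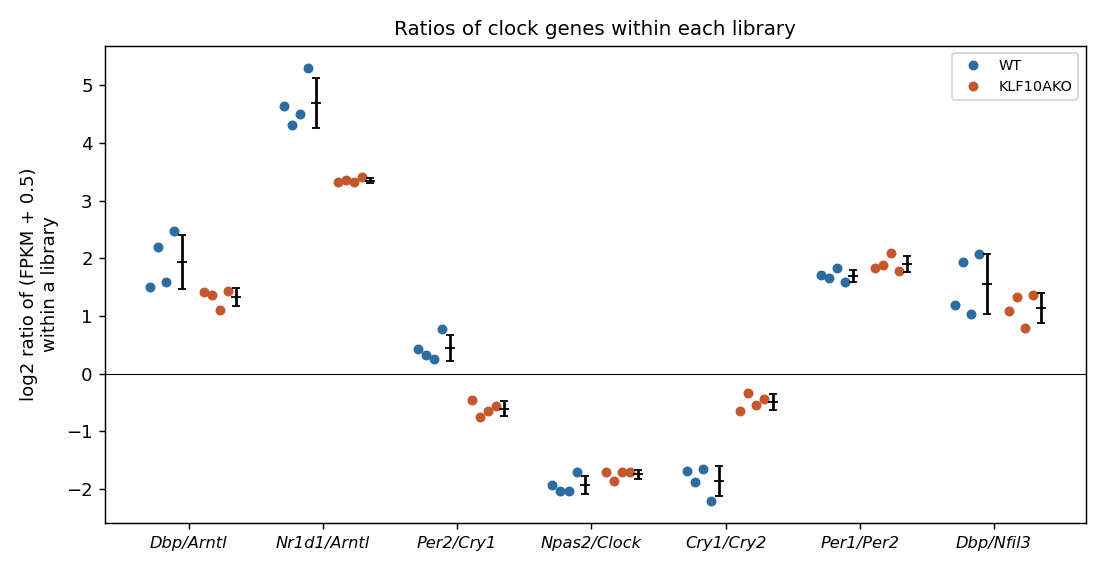
Log2 ratio of FPKM + 0.5 for 7 pairs of clock genes in each library (points, replicates 1 to 4 from left to right), with the group mean and SD (n = 4) as a bar. Nr1d1/Arntl, Per2/Cry1 and Cry1/Cry2 separate the groups by the widest gaps, Dbp/Arntl separates them narrowly, and the other 3 overlap.

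Of 21 further genes of the clock pathway, 19 passed the filter on low values, and Rorb and Fbxl21 did not. Of the 19, 3 were higher, 9 were lower and 7 did not pass, with a median log2 difference of -0.21 against 0.05 for all genes. The share called, 12 of 19, was under the 74.3% of all genes tested. Among the nuclear receptors that act on RREs, Nr1d2 (REV-ERB beta), the paralogue of Nr1d1, stood at 16.1, 17.8, 14.5 and 17.7 FPKM across WT, against 13.8, 13.6, 13.8 and 13.3 across KLF10AKO, a fall of 0.26 (limma adjusted p = 0.00796). Nr1d2 did not pass with TPM (-0.06, limma adjusted p = 0.661) or with KLF10AKO replicate 4 standing alone (-0.30, limma adjusted p = 0.113). That was smaller than the fall of Nr1d1; the difference between the paralogues was not tested. Rora, an activator of the same elements, stood at 4.51, 4.24, 4.42 and 4.14 FPKM across WT, against 2.80, 2.30, 3.69 and 1.59 across KLF10AKO and fell by 0.69 (limma adjusted p = 0.00806); with KLF10AKO replicate 4 standing alone the value was -1.21.

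The 3 genes that passed as higher were Timeless, Cipc and Ciart. Timeless, the mammalian relative of a fly clock gene that also works at replication forks, stood at 1.86, 2.33, 1.57 and 1.88 FPKM across WT, against 4.19, 3.78, 3.69 and 4.51 across KLF10AKO, a rise of 0.92 (limma adjusted p = 5.47e-05). Cipc, which binds CLOCK and inhibits it, rose from 7.57 to 8.39 FPKM in WT to 9.52 to 10.8 in KLF10AKO, by 0.33 (limma adjusted p = 8.92e-04). With KLF10AKO replicate 4 standing alone the Cipc difference was 0.25, with a limma adjusted p of 0.0501; it was 0.54 with TPM and 0.17 with quantile normalization, and passed with both. Ciart, a repressor of the pair, passed at 0.57 (limma adjusted p = 0.0271), but its groups overlapped (0.442 to 0.783 FPKM in WT, 0.723 to 1.47 in KLF10AKO) and it rested on 15 to 63 reads per library. Ciart no longer passed without WT replicate 1, 2 or 3 or without KLF10AKO replicate 2 or 4 (limma adjusted p = 0.0576 to 0.0764), nor with quantile normalization (0.15, limma adjusted p = 0.555). The paralogue of Arntl, Arntl2, fell by 0.54 (limma adjusted p = 0.00195), from 1.44 to 1.88 FPKM in WT to 0.775 to 1.07 in KLF10AKO, and by 0.90 with quantile normalization. The E-box repressors Bhlhe40 and Bhlhe41 did not pass, at 0.02 and -0.21; without KLF10AKO replicate 3 Bhlhe41 stood at -0.32 and passed (limma adjusted p = 0.0384), as it did with quantile normalization (-0.53), while TPM gave -0.06.

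Among the PAR bZIP factors and their competitor, Tef, a relative of Dbp, fell by 0.35 (21.3 ± 1.82 to 16.5 ± 1.29 FPKM, SD, n = 4 each, limma adjusted p = 0.00314). Hlf, the other relative, and Nfil3 did not pass, at log2 differences of 0.01 and 0.11. With quantile normalization Hlf stood at -0.35 and passed as lower (limma adjusted p = 0.018), while TPM gave 0.19. Of the enzymes that set the stability of PER and CRY proteins, Gsk3b and Csnk1e fell by 0.55 and 0.41 (limma adjusted p = 4.47e-05 and 2.56e-04). Gsk3b stood at 9.22, 10.3, 9.22 and 10.03 FPKM across WT, against 6.33, 6.77, 6.67 and 6.06 across KLF10AKO, and Csnk1e at 8.49, 8.90, 7.97 and 9.02 against 6.11, 6.76, 6.34 and 6.10. The ubiquitin ligase genes Fbxw11 and Btrc fell by 0.24 and 0.27 (limma adjusted p = 0.00210 and 0.0189). Btrc lost its call without WT replicate 3 or KLF10AKO replicate 2 (limma adjusted p = 0.0563 and 0.0528). With TPM none of Tef (-0.15), Csnk1e (-0.23), Btrc (-0.14) and Fbxw11 (-0.04) passed (limma adjusted p = 0.294, 0.0985, 0.375 and 0.771), while Gsk3b still did (-0.37, limma adjusted p = 0.0189).

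Csnk1d, which encodes a casein kinase that phosphorylates PER2, stood at 29.9 ± 0.982 and 29.4 ± 1.02 FPKM (SD, n = 4 each) in WT and KLF10AKO. The 95% interval of its log2 difference was -0.14 to 0.09. Of the outputs, Noct, a deadenylase-related gene known from fat, stood at 6.46, 5.89, 7.45 and 5.46 FPKM across WT, against 3.42, 3.21, 3.86 and 2.33 across KLF10AKO and fell by 0.89 (limma adjusted p = 4.03e-04). The cell cycle kinase gene Wee1 did not pass at -0.16 with all libraries, and passed at -0.33 without WT replicate 4 (limma adjusted p = 0.0212) and at -0.46 with quantile normalization (limma adjusted p = 0.0328), while TPM gave 0.02.

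**Figure D4:**
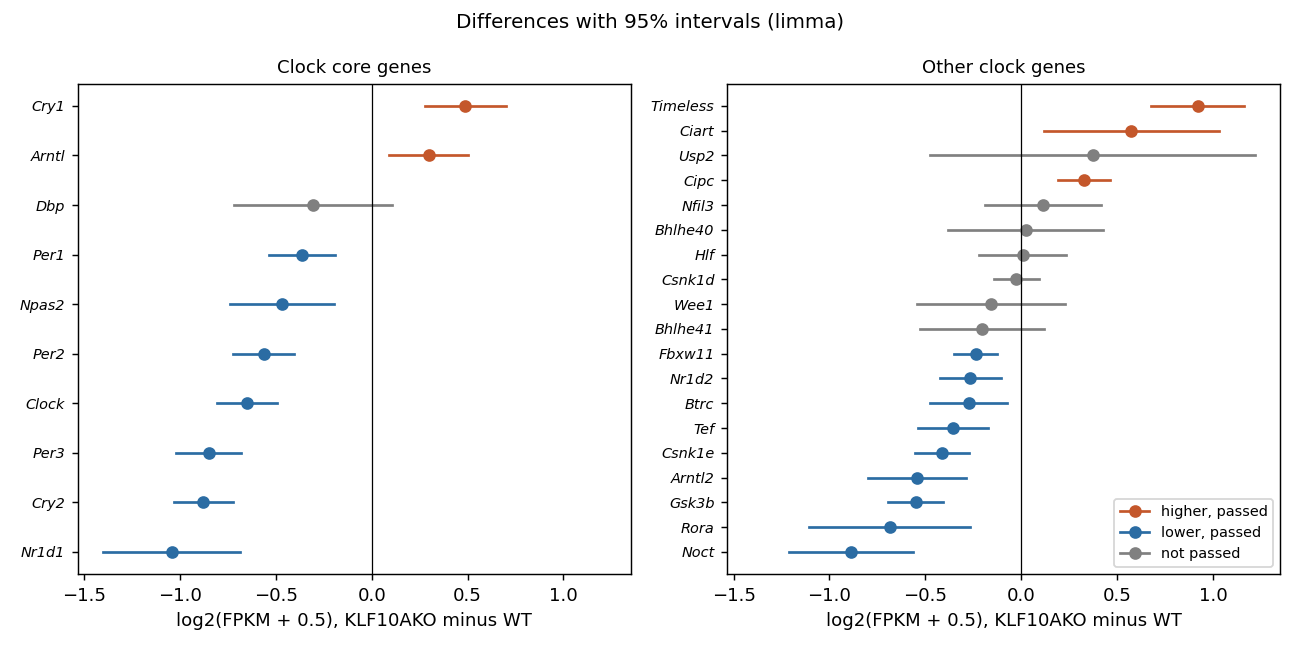
Difference of log2(FPKM + 0.5), KLF10AKO minus WT, with its 95% interval from limma, for the 10 clock core genes (left) and 19 other clock genes (right); colour shows which passed at an adjusted p of 0.05 and in which direction. On the left only Cry1 and Arntl lie above 0, and on the right Timeless, Ciart and Cipc passed above 0 and Noct, Rora and Gsk3b lie lowest.

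Several clock genes had the same order of libraries within a group as marker sums. Such an order takes no account of the size of the steps. Npas2, for example, stood at 0.6605 and 0.65986 FPKM in KLF10AKO replicates 1 and 2. In KLF10AKO the summed muscle markers and the summed adipocyte markers both fell in the order of replicates 3, 1, 2 and 4, and 5 of the 10 members (Arntl, Npas2, Per1, Cry2 and Nr1d1) and 7 of the 19 other genes had that same order, as did 14.3% of all genes tested. The summed B cell and T cell markers ran in exactly the reverse order, replicates 4, 2, 1 and 3, so these sums cannot be told apart by the order. Within the muscle and adipocyte order the deubiquitinase gene Usp2 ran from 4.21 FPKM in replicate 3 to 0.647 in replicate 4, and Rora from 3.69 to 1.59. Usp2 did not pass with all libraries (0.37, limma adjusted p = 0.386), passed at 0.75 without KLF10AKO replicate 4 (limma adjusted p = 0.0197) and turned to -0.74 with that replicate alone (limma adjusted p = 0.0458). In WT the summed trophoblast genes fell in the order of replicates 4, 2, 1 and 3, at 40.0, 25.7, 20.1 and 13.2 FPKM, and Dbp, Cry2 and 4 of the 19 other genes (Bhlhe40, Bhlhe41, Tef and Csnk1e) had that order, as did 6.33% of all genes tested. Bhlhe40 ran from 11.1 in WT replicate 4 to 5.51 in replicate 3. The part of muscle, adipocyte, lymphocyte or trophoblast RNA in these values was not tested.

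The genes whose variation within the groups was most like that of Dbp were Pi4k2a, 1700037H04Rik and Git1, with Pearson r of 0.95, 0.95 and 0.95 over the 8 libraries after each group's mean was taken out. Those most like Arntl were Mzt1, Lonp1 and Gbe1, at 0.97, 0.97 and 0.95. None of the 6 is in the lists of clock genes used here. These values describe 8 libraries that share depth and tissue mixture, and 0.374% and 0.280% of the 7494 and 7495 protein-coding genes compared had an r above 0.9 with Dbp and with Arntl.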

How the data were processed

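Per the labels' protocols, libraries of 370 to 420 bp were made from poly(A) RNA with random hexamer priming. The submitters' processing notes name mm10, featureCounts 1.5.0-p3, HISAT2 2.0.5 and edgeR 3.22.5, without roles; which annotation was used, and whether counting used strand, is not given in the sources. FPKM per gene was deposited by the authors, beside gene length. FPKM times length was a whole multiple of 1 step in each library for 100% of values within 0.01 of a read, and the recovered reads were 1.05 to 1.09 times the library size that this step implies in WT and 0.901 to 0.939 times in KLF10AKO. Gene identifiers matched GENCODE M21 in 99.9% of genes.

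KLF10AKO was compared with WT by limma 3.58.1 (R 4.3.3, lmFit and eBayes with trend) on log2(FPKM + 0.5) of 16012 genes with mean FPKM of at least 0.5, with two-sided p-values adjusted by Benjamini-Hochberg over all of them at 0.05. Members and ratios also had exact two-sided permutation tests. The fit was also run on simulated data with few changed genes and no tissue mixture. The libraries here differ from that setting, so the run does not check the calls given above. Named were the 10 members, the other clock genes, Klf10 and the 3 protein-coding genes with mean FPKM of at least 5 and the highest within-group Pearson r with Dbp and with Arntl; values of Thra and genes singled out for a library were chosen after their values were seen. The members, lists and alternatives were chosen with earlier results of these data known. Some genes of the other clock gene list are not reported here and enter none of its counts. The alternatives tried were adding 1 or 0.1, a minimum of 2 FPKM or none, TPM, quantile normalization, marker scaling, voom on recovered reads, robust eBayes, a replicate block, each library left out, and KLF10AKO replicate 4 alone. Differences between replicates exceeded counting noise in every pair of libraries of a group.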

Additional observations from a re-analysis of the deposited data

Results flagged for a closer look

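In 78 groups of 4 values examined, 6 had a library set apart from the other 3 by a gap large against the group's range, where chance alone gives about 1 in 20. Clock stood at 6.07 FPKM in WT replicate 1, above the other WT libraries, and Npas2 at 0.840 in KLF10AKO replicate 3, above the others of its group. Per3 stood at 2.996 FPKM in KLF10AKO replicate 4, below the others. Arntl2 at 1.88 and Wee1 at 1.37 FPKM in WT replicate 4 stood apart among WT libraries. The log2 ratio of Npas2 to Clock was -1.87 in KLF10AKO replicate 2, lower than in the other 3. Leaving out any of these libraries kept the direction and the call of Clock, Npas2 and Per3.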

How the results depend on the processing

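When each library was left out in turn, the members called higher stayed at 2 and those called lower at 7, and the other clock genes ranged from 2 to 3 higher and 8 to 10 lower. Left-out values ran from -0.75 to -0.42 for Dbp/Arntl, -1.47 to -1.14 for Nr1d1/Arntl, -1.12 to -0.94 for Per2/Cry1, 0.14 to 0.25 for Npas2/Clock, 1.25 to 1.43 for Cry1/Cry2, 0.14 to 0.25 for Per1/Per2 and -0.59 to -0.25 for Dbp/Nfil3. With quantile normalization 1 member was higher, Arntl stood at -0.00017 and Hlf at -0.35, which passed as lower. Dbp/Arntl was then -0.48 and did not pass, and Per1/Per2 was 0.36, at the threshold. With TPM 4 other clock genes were lower. With KLF10AKO replicate 4 standing alone 0 members were higher by limma adjusted p (Cry1 at 0.47 with an adjusted p of 0.0723), Usp2 turned to -0.74, Dbp/Arntl was -0.50 and Nr1d1/Arntl -1.29, and neither ratio passed; the lone library is assumed to vary like WT. Scaling to adipocyte markers moved all genes up by its construction. With it, 10 members and 19 other clock genes were higher and 0 lower. The log2 differences that turned were Klf10 0.84, Clock 1.07, Npas2 1.25, Per1 1.36, Per2 1.16, Per3 0.87, Cry2 0.85, Nr1d1 0.68 and Dbp 1.42, and among other clock genes Nr1d2 1.46, Rora 1.04, Arntl2 1.18, Bhlhe41 1.52, Tef 1.37, Csnk1d 1.70, Csnk1e 1.31, Gsk3b 1.17, Btrc 1.45, Fbxw11 1.49, Noct 0.84 and Wee1 1.57. Apart from scaling, the cause of these changes was not tested. Same-numbered libraries hardly deviated together (r of 0.00 to 0.03). WT replicates 1, 3 and 4 still had the KLF10AKO library of their own number as best partner. These values do not settle whether the numbers pair libraries. With the number as a replicate block, 11726 genes passed against 11893. Per1/Per2 (0.20) and Dbp/Nfil3 (-0.42) then passed, and no member changed its call. Npas2 had no value at a minimum mean of 2 FPKM.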
